A study of Homo sapiens with 4 samples.

Results

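The genes described here make and break down the polyamines putrescine, spermidine and spermine, or control that process. They are the 10 genes SAT1 (ENSG00000130066), ODC1 (ENSG00000115758), OAZ1 (ENSG00000104904), OAZ2 (ENSG00000180304), AZIN1 (ENSG00000155096), SRM (ENSG00000116649), SMS (ENSG00000102172), AMD1 (ENSG00000123505), SMOX (ENSG00000088826) and MTAP (ENSG00000099810), each found once by its symbol among the 58302 gene rows of the deposited table. The group was selected by pathway with the levels of these genes in the 4 libraries, and their differences between the 2 stages, already known. Their stage differences are therefore given as a description, with a standard error and without a p-value.

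RNA was sequenced from BLaER1, a line derived from a human B cell leukaemia. It expresses a fusion of C/EBPα, a transcription factor of myeloid cells, with the hormone-binding part of the oestrogen receptor, and can be converted into macrophage-like cells. Both stages are the same line grown in RPMI medium with serum, and both carry the fusion. Differentiated cells (2 libraries) had been kept for 5 to 6 days with IL-3 at 10 ng/ml, M-CSF and 100 nM oestradiol, and undifferentiated cells (2 libraries) are the line before conversion. Whether both libraries of a stage are separate cultures is not labelled, so p-values rest on the spread of 2 libraries a stage, part or all of which may be technical, and a single converted leukaemia line limits what can be carried over to macrophages from blood.

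Polyamines are small positively charged molecules that bind RNA and DNA and are needed for growth and translation. Ornithine decarboxylase (ODC1) makes putrescine, and spermidine synthase (SRM) and spermine synthase (SMS) add aminopropyl groups that come from S-adenosylmethionine decarboxylated by AMD1. Each addition leaves methylthioadenosine, which MTAP returns to the methionine cycle. Antizymes (OAZ1, OAZ2) bind ODC1 and send it to the proteasome, the antizyme inhibitor AZIN1 takes antizyme away from ODC1, SAT1 acetylates spermidine and spermine for export or oxidation, and SMOX oxidises spermine.

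The antizyme genes carry the sequence by which the cell senses polyamines, and it is shown because the levels of these genes overlapped between stages. Ribosomes must shift frame at a stop codon to make antizyme, and polyamines raise that shift. The lines give 48 bases of coding sequence from GENCODE release 29 transcripts, with the shift site in capitals. It holds the codon before the stop, the stop TGA and the next base.
OAZ1: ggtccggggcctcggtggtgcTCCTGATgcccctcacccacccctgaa
OAZ2: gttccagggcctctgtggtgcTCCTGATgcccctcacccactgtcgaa
The windows were identical at 41 of 48 positions. The annotation writes the shift as a skipped base, the T of the stop, in 2 of 3 coding transcripts of OAZ1 and in 3 of 4 of OAZ2. RNA levels do not show how often the shift occurred.

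RefSeq promoter sequences (GRCh38.p14, 250 bases before to 50 after the start) were found for 8 of the 10 genes, in 11 entries, and not for AZIN1 and SMOX. Motifs were searched on both strands of these stretches. The E-box CACGTG, bound by MYC and its partner MAX among others, was in 2 of the 11 entries and in 7.26% of all 35116. The matches lie in ODC1 and SRM, whereas the other synthesis genes SMS and AMD1, and MTAP, held none. SMS had a wider difference between stages than ODC1 or SRM, and any tie between the E-box and these levels was not tested. The ODC1 match starts 29 bases before the inner of the 2 listed starts, with a further one beginning at base 6 after it, and the SRM match starts 199 bases before its start. Both are shown with the E-box in capitals, on the minus strand, ODC1 at chr2:10448024-10448053 and SRM at chr1:11060200-11060229.
ODC1: ccgggccccgggCACGTGtgcggcgcgcct
SRM: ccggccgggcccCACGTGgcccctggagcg
The ETS core GAGGAA, the kind of site that PU.1 binds, was in 4 of the 11 entries (SAT1, ODC1, SMS and MTAP) and in 27.9% of all. TATAAA was in 2 entries and in 11.5% of all, beginning at base 7 after the OAZ1 start and 215 bases before the MTAP start. TTGCAA, a stretch shorter than a full C/EBP site, was in 5.51% of all and in 0 of the 11. Its absence does not show that C/EBP sites are absent. A match is a stretch of letters and not a measured site. The 250 bases before the SAT1 start (chrX:23782923-23783172, plus strand) are given because SAT1 had by far the widest stage difference of the 10 genes, with GAGGAA in capitals.
SAT1: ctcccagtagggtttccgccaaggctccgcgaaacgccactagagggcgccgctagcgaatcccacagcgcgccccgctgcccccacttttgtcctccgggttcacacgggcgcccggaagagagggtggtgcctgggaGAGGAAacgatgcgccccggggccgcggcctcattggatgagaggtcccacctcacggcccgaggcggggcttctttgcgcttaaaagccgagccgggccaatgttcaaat
Of these bases 66.4% are G or C with 25 CpG, against medians of 58% and 11 over all entries.

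Values are TPM, an abundance per gene length with an equal total in each library, so levels of different genes can be compared. TPM keep no sequencing depth. Protein-coding genes took 12.2% and 13.5% of the TPM in the differentiated and 23.0% and 15.6% in the undifferentiated libraries, so the scale of all the genes here moves with RNA outside the coding genes. Undifferentiated replicate 1 had a higher value than replicate 2 for all 10 polyamine genes, by 1.11 to 3.18 times, and the median of that difference over the genes tested was 0.50 on the log2(TPM + 1) scale. The stages matched their labels. The 10 pre-B and B cell markers summed to 11.7 and 12.9 TPM in differentiated and 473 and 274 TPM in undifferentiated libraries, and the 8 macrophage markers to 664 and 729 against 10.9 and 7.73 TPM. Markers of T and NK, erythroid, and fibroblast or epithelial cells summed to at most 2.42 TPM in any library, with CD3D, CD3E, HBA1 and EPCAM listed at 0 in all 4.

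SAT1 stood apart from the other members. The TPM of this acetyltransferase were 361 and 391 in differentiated cells, compared with 3.88 and 1.82 in undifferentiated cells. The stages were far apart and the differentiated libraries were close to each other, with a mean of 376 ± 21.04 TPM (SD, n = 2), compared with 2.85 ± 1.46 TPM before differentiation. The ratio of the means was 132, and the log2 difference was 6.67 ± 0.39 (SE of the fit). In the fit over all tested genes, log2 differences are of log2(TPM + 1). At low levels they are therefore smaller than the log2 of a ratio of TPM. Among 19817 protein-coding genes SAT1 ranked 31 and 34 by TPM after differentiation and 5103 and 5714 before it. Among the 9295 protein-coding genes tested it had the 7th highest log2 difference. SAT1 made up 82.1% and 80.3% of the summed TPM of the 10 genes in differentiated cells and 2.13% and 1.92% in undifferentiated cells. In bulk RNA of this kind, a change in the number of cells that express a gene and a change in its RNA per cell cannot be told apart.

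**Figure D1:**
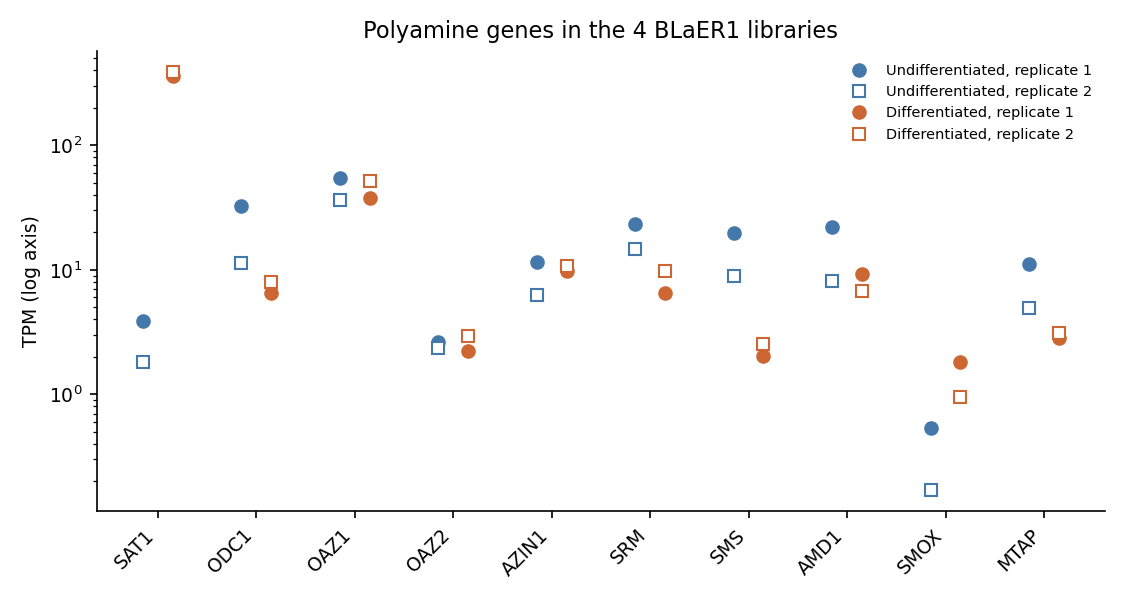
TPM of the 10 polyamine genes (log axis) in each library, with undifferentiated libraries in blue and differentiated ones in orange, and replicate 1 filled and replicate 2 open. SAT1 lies at 361 and 391 in differentiated libraries, far above 3.88 and 1.82, while the antizyme genes OAZ1 and OAZ2 overlap between stages.

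SMOX, the spermine oxidase, was low throughout. Its TPM were 1.81 and 0.95 in differentiated cells, compared with 0.54 and 0.17 in undifferentiated cells. The libraries did not overlap, but only 1 of them reached 1 TPM, so SMOX missed the filter of 1 TPM in at least 2 libraries and was the only member not tested. On the log2(TPM + 1) scale it differed by 0.80. Within a library SAT1 exceeded SMOX by 199 and 411 times in differentiated and by 7.19 and 10.7 times in undifferentiated cells, with the low SMOX values making these ratios imprecise.

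The synthesis enzymes were lower in differentiated cells or overlapped. SMS, which makes spermine, had TPM of 2.03 and 2.52 in differentiated cells, compared with 19.8 and 9 in undifferentiated cells. The ranges were separate, with means of 2.28 ± 0.346 and 14.4 ± 7.67 TPM (SD, n = 2), a ratio of 6.34 and a log2 difference of -2.14 ± 0.43 (SE). SRM, which makes spermidine, had TPM of 6.53 and 9.8, compared with 23.4 and 14.7, also without overlap, and a log2 difference of -1.12 ± 0.40. SMS was thus 0.311 and 0.257 of SRM within the differentiated libraries and 0.847 and 0.613 of it within the undifferentiated libraries, a ratio that does not depend on the scaling of a library.

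ODC1, which makes putrescine, had TPM of 6.54 and 7.98 in differentiated cells, compared with 32.6 and 11.3 in undifferentiated cells. The undifferentiated libraries differed from each other by 2.89 times, yet both lay above the differentiated ones. The means were 7.26 ± 1.02 and 21.9 ± 15.1 TPM (SD, n = 2), and the log2 difference was -1.30 ± 0.47. It was -0.57 without undifferentiated replicate 1 and -2.03 without replicate 2. AMD1, the decarboxylase that supplies aminopropyl groups, had TPM of 9.19 and 6.74, compared with 21.9 and 8.15. Its stages overlapped, since differentiated replicate 1 exceeded undifferentiated replicate 2, and the log2 difference was -0.71 ± 0.46. It was -0.043 without undifferentiated replicate 1 and -1.37 without replicate 2, so its size rested on which of these libraries was used. The 4 synthesis enzymes together summed to 24.3 and 27.0 TPM in differentiated and 97.8 and 43.1 TPM in undifferentiated libraries.

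MTAP, which recycles the by-product of spermidine and spermine synthesis, had TPM of 2.83 and 3.1 in differentiated cells, compared with 11.1 and 4.9 in undifferentiated cells. The ranges did not overlap, and the log2 difference was -1.09 ± 0.43, or -0.57 without undifferentiated replicate 1. MTAP shares exon positions with 2 other annotated genes on its strand, AL359922.1 (2.02 TPM in undifferentiated replicate 2 and at most 0.2 TPM elsewhere) and ERVFRD-3 (at most 0.32 TPM), so some of its reads could have been assigned elsewhere.

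The genes of the proteins that control ODC1 by binding overlapped between stages. OAZ1 was the most abundant member before differentiation and the second after SAT1 in differentiated cells. Its TPM were 37.9 and 51.4 in differentiated cells, compared with 54.6 and 36.2 in undifferentiated cells. These ranges overlapped, with means of 44.6 ± 9.56 and 45.4 ± 13.0 TPM (SD, n = 2) and a log2 difference of -0.01 ± 0.38. OAZ2, its paralog, had TPM of 2.22 and 2.96, compared with 2.64 and 2.37, overlapping, and a log2 difference of 0.03 ± 0.36. OAZ1 exceeded OAZ2 by 15.3 to 20.7 times in the 4 libraries. AZIN1, the inhibitor of both antizymes, had TPM of 9.78 and 10.7, compared with 11.7 and 6.27, again overlapping, with a log2 difference of 0.23 ± 0.40. With standard errors of this size, the values do not show that the levels were equal. The sign of the OAZ1 difference turned with the scaling, at 0.21 with median-of-ratios scaling and 0.55 with either quantile normalization or TPM rescaled over protein-coding genes.

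The balance between ODC1 and its regulators differed between stages within libraries. ODC1 was 0.173 and 0.155 of OAZ1 in differentiated and 0.596 and 0.311 of it in undifferentiated libraries. The ratio of AZIN1 to OAZ1 was 0.258 and 0.209 after and 0.213 and 0.173 before differentiation, with overlap. ODC1 was below AZIN1 in differentiated cells (ratios 0.669 and 0.744) and exceeded it in undifferentiated cells (2.79 and 1.79). SAT1 exceeded ODC1 by 55.2 and 49 times in differentiated cells and was 0.119 and 0.162 of it in undifferentiated cells.

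**Figure D2:**
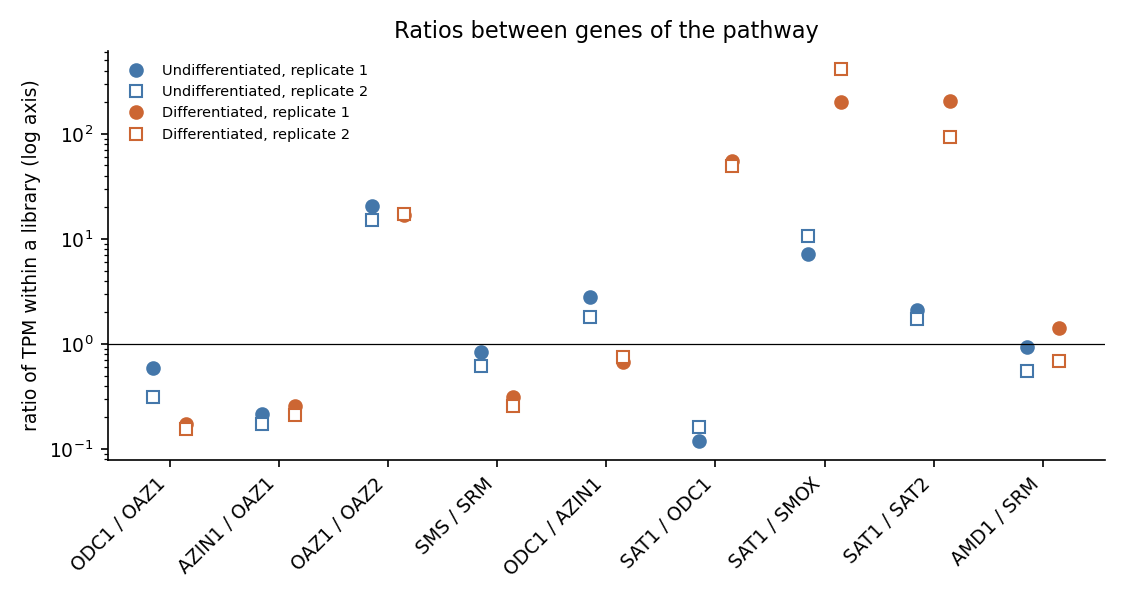
Ratios of TPM between genes within each library (log axis, line at 1), with colours for stages and filled or open symbols for replicates 1 and 2. SAT1 over ODC1 is 55.2 and 49 after and 0.119 and 0.162 before differentiation, whereas OAZ1 over OAZ2 stays between 15.3 and 20.7.

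By level, the order in undifferentiated cells was OAZ1 (45.4 TPM), ODC1 (21.9), SRM (19.0), AMD1 (15.05), SMS (14.4), AZIN1 (8.96), MTAP (7.99), SAT1 (2.85), OAZ2 (2.51) and SMOX (0.355), as mean TPM. Neighbours from ODC1 to MTAP differed by less than the larger of their SDs, as did SAT1 and OAZ2. In differentiated cells SAT1 (376 TPM) and OAZ1 (44.6) led, followed by AZIN1 (10.25), SRM (8.165), AMD1 (7.965), ODC1 (7.26), MTAP (2.965), OAZ2 (2.59), SMS (2.275) and SMOX (1.38). By the same measure neighbours from AZIN1 to ODC1, and from MTAP to SMS, were within their spread.

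In the limma fit over all 10180 tested genes (Benjamini-Hochberg adjusted p below 0.05), 1 of the 9 tested members was past the threshold in the higher direction (SAT1), where 18.6% of all tested genes were. In the lower direction 3 of the 9 were past it (SMS, ODC1 and SRM), against 22.8% of all. All 3 were past it with a pseudocount of 0.1, median-of-ratios scaling or quantile normalization. MTAP was also past it with either of these 2 scalings. ODC1 was not past it at a minimum of 5 TPM or without the mean-variance trend, nor SRM with the replicate number as a block. None of the 3 was past it without a filter on low values. Separate ranges were seen for 1 of the 9 with differentiated cells higher (31.0% of all tested genes) and for 4 with them lower (39.0%). Because the group was chosen with this contrast known, nothing is read from these counts. The median log2 difference was -0.71 over the 9 members and -0.14 over all tested genes. With a library left out, its stage holds a single library. Effect sizes are given here, then where SMS, ODC1 and SRM fell short of the threshold, and no counts. The log2 differences then ranged from -2.67 to -1.61 for SMS, -2.03 to -0.57 for ODC1 and -1.44 to -0.80 for SRM. SMS, ODC1 and SRM were not past the threshold without either differentiated library, nor ODC1 and SRM without undifferentiated replicate 1. With TPM rescaled over protein-coding genes, 10 members were in the fit. Of these, 1 (SMS) was past the threshold in the lower and 3 (SAT1, AZIN1 and SMOX) in the higher direction. Of all 11945 genes tested in that setting, 2153 were past it in the lower and 4102 in the higher direction. The 10 cell cycle markers, given because polyamine synthesis accompanies growth, summed to 15.1 and 20.9 TPM in differentiated cells, compared with 425 and 248 TPM in undifferentiated cells. Whether these markers are tied to the levels of the synthesis genes was not tested.

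**Figure D3:**
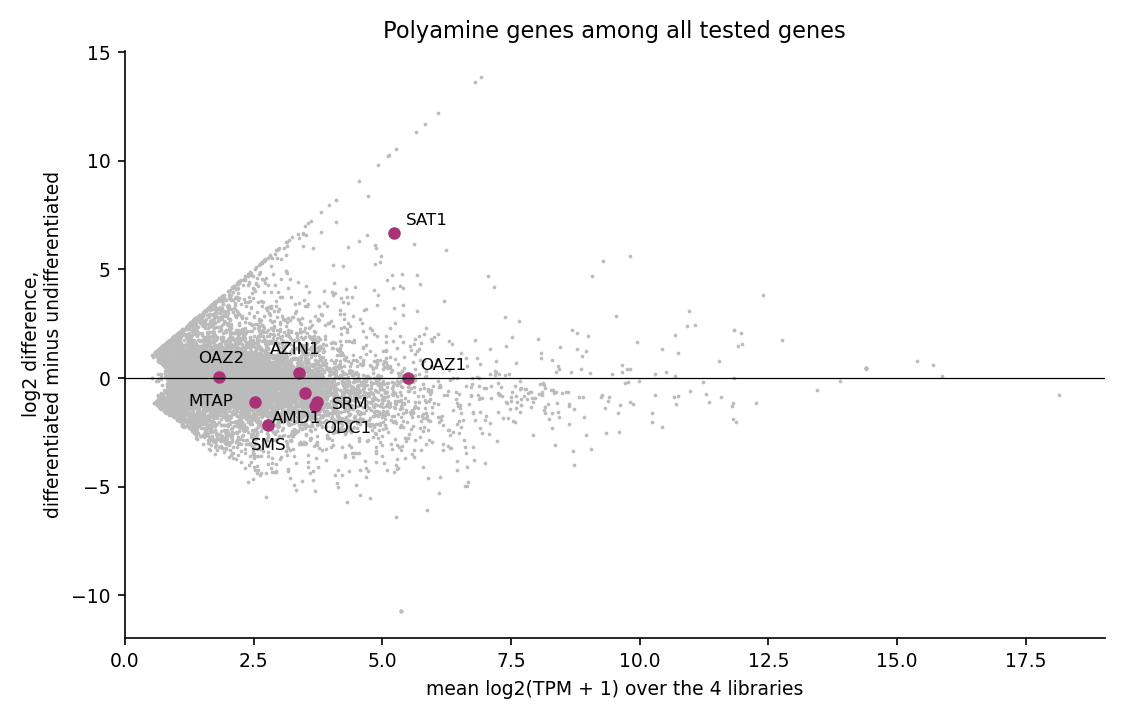
Log2 difference (differentiated minus undifferentiated, log2(TPM + 1) scale) against the mean level for the 10180 tested genes in grey, with the 9 tested polyamine genes in purple. SAT1 lies at 6.67, SMS at -2.14, and OAZ1, OAZ2 and AZIN1 near 0.

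**Figure D4:**
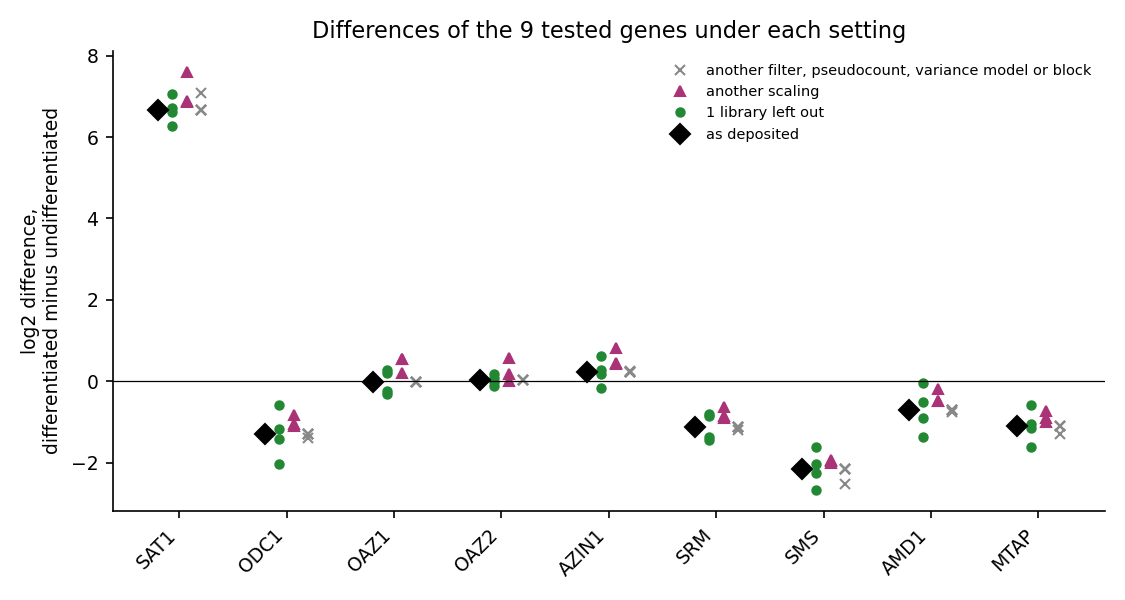
Log2 difference of the 9 tested genes as deposited (diamonds), with 1 library left out (circles), with another scaling (triangles) and with another filter, pseudocount, variance model or block (crosses). SAT1 ranges from 6.27 to 7.61 and SMS from -2.67 to -1.61, while OAZ1, OAZ2 and AZIN1 lie on both sides of 0.

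The genes with the most similar values were looked up for SAT1 and ODC1, by Euclidean distance between log2(TPM + 1) values over the 4 libraries among all tested genes. For SAT1 they were CTSB (distance 0.97), a lysosomal cysteine protease with TPM of 361 and 474 in differentiated and 6.4 and 3.6 in undifferentiated cells, LGMN (1.26), the lysosomal protease legumain, and IFI30 (1.87), a lysosomal thiol reductase. For ODC1 they were SRSF6 (0.29), a splicing factor, PHAX (0.38), an adaptor for the export of small nuclear RNAs, and UFM1 (0.40), a ubiquitin-like modifier. The measure takes in level as well as stage difference.

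Other genes of the pathway numbered 36 in 6 lists. Of them 19 were tested, of which 2 were called higher, 6 lower and 11 not called (limma, adjusted over all 10180 genes), against 18.6% higher and 22.8% lower among all tested genes. SLC18B1, SLC7A1 and SLC25A15 are among the called genes but reached 1 TPM only in the stage where they were higher. Having passed the filter that way they had to differ, so nothing is read from the counts that hold them, and no p-value is given for them. The 19 genes' median log2 difference was -0.36. Another 15 were below 1 TPM in all 4 libraries, among them the arginases ARG1 and ARG2, the agmatinase AGMAT, the polyamine oxidase PAOX, and the antizyme relatives OAZ3 and AZIN2. The remaining 2 untested genes, SLC7A2 and DOHH, reached 1 TPM in 1 library each.

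Of the 6 transport genes tested, 2 were called higher (18.6% of all tested genes) and 2 lower (22.8%), and ATP13A2 is the single gene among these 4 that reached 1 TPM in both stages. ATP13A2, a lysosomal exporter of polyamines to the cytosol, had TPM of 2.58 and 3.5 in differentiated cells, compared with 1.14 and 1.15 in undifferentiated cells. Its ratio of mean TPM was 2.66, and it was higher by 0.90 ± 0.33 on the log2(TPM + 1) scale (SE, limma adjusted p = 0.0448). The vesicular polyamine transporter SLC18B1 was at 1.1 and 1.83 against 0.53 and 0.02 TPM, a difference of 0.96 ± 0.25 on the same scale. The arginine importer SLC7A1 was at 0.88 and 0.79 against 5.62 and 2.42 TPM (-1.38 ± 0.38), and the mitochondrial ornithine carrier SLC25A15 at 0.46 and 0.69 against 1.98 and 1.61 TPM (-0.83 ± 0.25). Neither reached 1 TPM in differentiated cells. ATP13A3, a relative of ATP13A2, was at 19.7 and 14.9 against 42.4 and 18.8 TPM and was not called (adjusted p = 0.219, limma; 0.0148 without undifferentiated replicate 2), nor was SLC3A2, the heavy chain of amino acid exchangers, at 7.39 and 8.07 against 13.0 and 6.27 TPM.

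Ornithine can also be made from glutamate. ALDH18A1, which carries out the first step of that route, was at 1.95 and 3.48 TPM in differentiated and 10.8 and 6.76 TPM in undifferentiated libraries and fell (-1.40 ± 0.41, limma adjusted p = 0.0156). OAT, the ornithine aminotransferase, was at 2.24 and 2.14 against 5.59 and 4.21 TPM, without overlap, and was not called (-0.88, adjusted p = 0.082, limma). It was called lower without undifferentiated replicate 2 (adjusted p = 0.0173), with quantile normalization (0.0139) and with median-of-ratios scaling (0.0278).

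Spermidine is the donor for hypusine, a modified lysine found in the translation factor eIF5A. EIF5A itself was at 21.03 and 28.9 TPM in differentiated and 74.6 and 43.8 TPM in undifferentiated libraries and fell (-1.18 ± 0.39, limma adjusted p = 0.0284). EIF5A has near-identical copies elsewhere in the genome, among which its reads could have been split. DHPS, the enzyme that transfers the spermidine part, was at 4.96 and 5.79 against 5.43 and 5.14 TPM, overlapping, with a difference of 0.02 ± 0.38 (adjusted p = 0.976, limma). DOHH, which completes the modification, was at or below 1.03 TPM in all libraries and was not tested.

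In the list of S-adenosylmethionine supply and methionine salvage, 2 of 8 tested genes were called lower, where 22.8% of all tested genes were, and 6 were not called. The called genes, ENOPH1 and APIP, encode later enzymes of the route that MTAP begins. ENOPH1 had TPM of 2.59 and 2.73 in differentiated and 12.8 and 5.43 in undifferentiated cells (-1.36 ± 0.44, adjusted p = 0.0232, limma), and APIP at 1.39 and 2.06 against 7.83 and 4.48 TPM (-1.36 ± 0.40, adjusted p = 0.0158, limma). ADI1, which follows them in the salvage route, had the opposite sign at 2.34 and 2.25 against 1.56 and 1.02 TPM, without overlap, and was not called (0.53 ± 0.32, adjusted p = 0.202, limma). ADI1 was called higher under each of the other scalings, with adjusted p from 0.00932 to 0.0446. MAT2A, the S-adenosylmethionine synthetase of most tissues, was at 26.9 and 27.6 against 99.4 and 37.2 TPM and was not called (-1.13 ± 0.45, adjusted p = 0.0586, limma). MAT2A was called lower without undifferentiated replicate 2 (-1.83, adjusted p = 0.00297) and under the median-of-ratios alternative (adjusted p = 0.0336), and its difference was -0.43 without undifferentiated replicate 1. Its regulatory subunit gene MAT2B was at 10.6 and 13.3 against 15.3 and 12.2 TPM. AHCY, MRI1 and GOT1 overlapped between stages and were not called, with log2 differences of -0.36, -0.10 and -0.23.

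SAT2, a relative of SAT1, did not share its level or its separation of stages. It was at 1.77 and 4.23 TPM in differentiated and 1.86 and 1.05 TPM in undifferentiated libraries, overlapping (0.65 ± 0.39, adjusted p = 0.203, limma), and was called higher when TPM were rescaled over protein-coding genes (limma adjusted p = 0.0225). SAT1 exceeded it by 204 and 92.4 times in differentiated cells and by 2.09 and 1.73 times in undifferentiated cells.

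**Figure D5:**
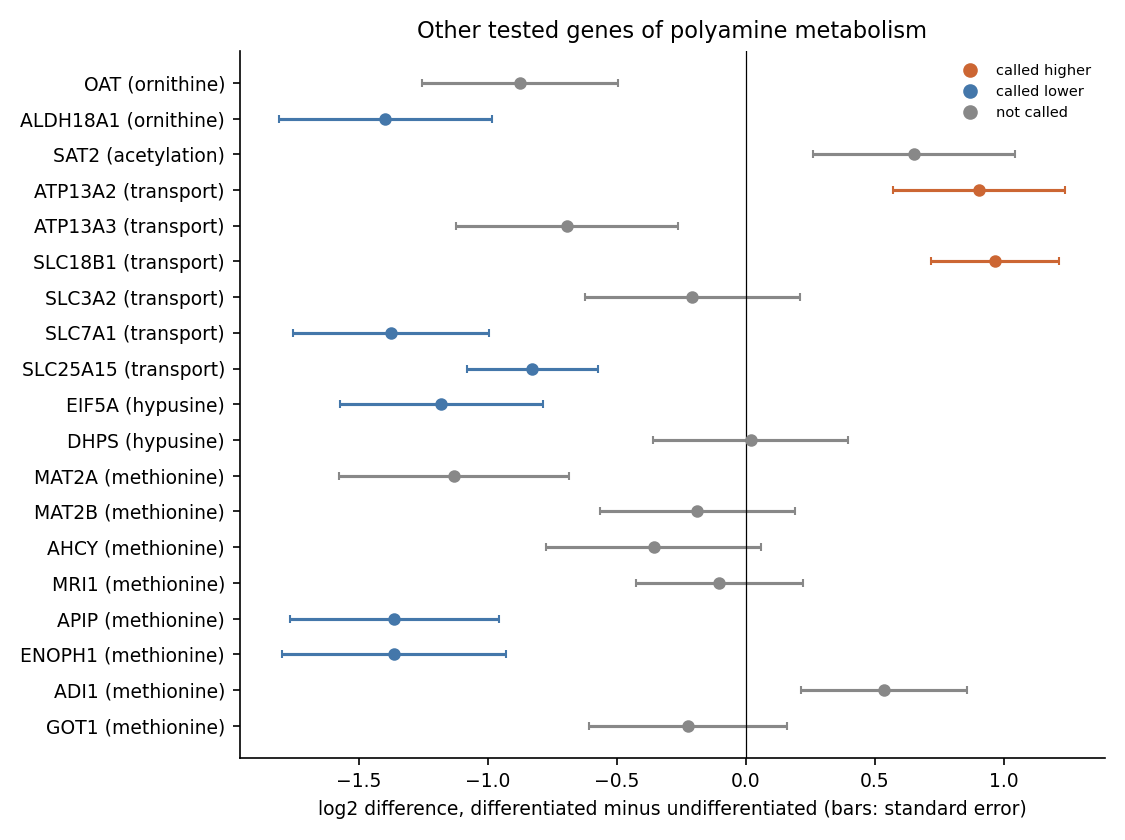
Log2 difference with its standard error for the 19 tested genes of the other pathway lists, with the list in brackets, coloured orange where called higher, blue where called lower and grey where not called. ATP13A2 and SLC18B1 are the 2 called higher, and the 6 called lower lie between -1.40 and -0.83; SLC18B1, SLC7A1 and SLC25A15 passed the filter through their higher stage alone.

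The 5 called genes that reached 1 TPM in both stages (ALDH18A1, EIF5A, APIP, ENOPH1 and ATP13A2) lost their calls with either differentiated library left out. Their limma adjusted p ranged from 0.192 to 0.384 without replicate 1 and from 0.201 to 0.331 without replicate 2. None of the 8 called genes was called when all genes with any TPM were tested (limma adjusted p from 0.123 to 0.183 for these 5 genes; 5 higher and 7 lower in these lists by unadjusted p). EIF5A also lost its call without undifferentiated replicate 1 (adjusted p = 0.0697), with quantile normalization (0.0666) and with the replicate number as a block (0.0621), and ATP13A2 with that block (0.0859) and with a pseudocount of 0.1 (0.0597). SLC18B1 and SLC25A15 were not called when the variance trend was left out. SLC7A1 and SLC25A15 also lost their calls with either differentiated library left out, and SLC18B1 without differentiated or undifferentiated replicate 2.

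Copies were looked up by name for every member, as its symbol followed by P and digits, and were found for AMD1, MTAP and SRM. The 8 rows named as processed copies of AMD1, MTAP or SRM were listed at 0.37 TPM or less. The antisense genes that share exon positions with AZIN1, OAZ2 and MTAP were listed at 0.96 TPM or less. Libraries were made with a strand-keeping kit, but whether the estimates used the strand is not given in the sources used here.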

How the data were processed

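RNA from 4 libraries of BLaER1 cells was analysed from the authors' deposited TPM table. Trimmomatic (trimming), STAR (alignment) and RSEM (abundance) are named in the submitters' processing notes. For their versions and settings, the genome build and the annotation, the sources used here give nothing. TPM keep no depth, so no counting error could be computed. RSEM shares out reads that match several genes.

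Columns were matched to samples by title, and no column was left unused. The 10180 genes reaching 1 TPM in 2 or more libraries were compared as log2(TPM + 1) with limma 3.58.1 in R 4.3.3, with a mean-variance trend, 2 residual and 10.9 prior degrees of freedom, two-sided, with Benjamini-Hochberg adjustment and a threshold of 0.05. With 2 libraries a stage, no exact permutation test can reach that threshold. The fit was tested on simulated data. SE is from the fit, and folds are ratios of mean TPM. Gene types came from GENCODE release 29 (58039 IDs matched) and promoters from RefSeq (GRCh38.p14).

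The members and lists were chosen with earlier results of these data known. Named are all members, the listed pathway genes that passed the filter, and the 3 nearest genes to SAT1 and to ODC1. Genes named although below the filter were chosen after their values were seen. Alternatives were 2 filters, a pseudocount of 0.1, 3 scalings, no trend, a replicate block and leaving out each library. Proteins were not compared here.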

Additional observations from a re-analysis of the deposited data

How the results depend on the processing

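The log2 differences of SAT1, ODC1, SRM, SMS, AMD1 and MTAP kept their sign under every alternative run for them, but single libraries moved some by over 1.5 times. They ranged from 6.27 to 7.61 for SAT1, -2.03 to -0.57 for ODC1, -1.44 to -0.64 for SRM, -2.67 to -1.61 for SMS, -1.37 to -0.043 for AMD1 and -1.61 to -0.57 for MTAP. Of 106 member differences under alternatives, 8 turned sign and 5 others moved by more than the spread between replicates. The remaining 93 do not measure stability. The filters, the variance model and the block leave a difference as it was. Leaving out 1 of 2 libraries cannot move it by more than that spread. The turned ones were OAZ1 (0.21 with median-of-ratios scaling, 0.55 with quantile normalization and with rescaling over protein-coding genes, 0.20 without differentiated replicate 1, and -0.30 to 0.28 with any library left out), OAZ2 (-0.12 to 0.18 with a library left out) and AZIN1 (-0.17 to 0.63, the lowest without undifferentiated replicate 2). Among other pathway genes, signs turned where no call was made: SLC3A2 (0.33 after rescaling over protein-coding genes, -0.68 to 0.26 with a library left out), DHPS (-0.076 to 0.11 with a library left out), MAT2B (0.016, 0.12 and 0.36 under the 3 scalings), AHCY (0.15 after rescaling, -0.76 to 0.045 with a library left out), MRI1 (0.058 after median-of-ratios scaling, 0.41 after rescaling, -0.56 to 0.35 with a library left out) and GOT1 (0.25 after rescaling, -0.52 to 0.072 with a library left out).

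Over all genes, 1890 were called higher and 2326 lower. These counts were 687 and 573 without a filter on low values (29186 genes tested), 1016 and 1420 at a minimum of 5 TPM, 2915 and 2649 after median-of-ratios scaling, and 4102 and 2153 after rescaling over protein-coding genes. With 1 library left out they ranged from 934 to 2714 and from 337 to 3818. The median log2 difference of all tested genes was -0.14 as deposited, 0.04 after median-of-ratios scaling and 0.37 after rescaling over protein-coding genes. Members past the threshold in the lower direction numbered 3 as deposited and 0 without a filter (limma, 2 by unadjusted p). They numbered 4 with median-of-ratios scaling or quantile normalization, and 1 after rescaling over protein-coding genes. In the higher direction there were 3 after rescaling and 1 otherwise. Other pathway genes called higher numbered 2 as deposited, 1 with a pseudocount of 0.1, 1 without a trend, 0 without a filter (limma; 5 by unadjusted p), 0 at a minimum of 5 TPM (limma; 0 by unadjusted p), 5 after rescaling over protein-coding genes and 0 to 2 with 1 library left out. Those called lower numbered 6, against 0 without a filter (limma; 7 by unadjusted p), 3 at a minimum of 5 TPM, where 9 were tested, and 0 to 9 with 1 library left out. The causes were not tested beyond the numbers of genes and libraries each setting used.

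Replicate numbers are shared between the stages, but no label says that they mark a shared culture, and same-numbered libraries did not deviate together (r = -0.024 across genes). With the replicate block 1730 genes were called higher and 2036 lower, 1 and 2 of them members, and 1 and 5 of the other pathway genes. TPM give no depth, so precision at low values such as SMOX is unknown.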

Other observations

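MTAP lies beside CDKN2A, a cell cycle inhibitor gene, with which it is often deleted in leukaemia lines. In the RefSeq order of protein-coding genes CDKN2A and CDKN2B follow MTAP directly. These neighbours were chosen after their values were seen. CDKN2A had TPM of 5.33 and 6.32 in differentiated cells, compared with 3.79 and 3.19 in undifferentiated cells. CDKN2B, also an inhibitor of the cell cycle, had TPM of 2.81 and 1.49, compared with 0 and 0.01. MTAP itself was at 2.83 and 3.1 against 11.1 and 4.9 TPM, so RNA of MTAP and of CDKN2A was listed in all 4 libraries. On the other side of MTAP, IFNE and IFNA1 were at 0.03 TPM or less.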
